A study of Mus musculus with 3 samples.

Results

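The 10 genes described here encode the peptide hormones and granins of the pancreatic islet, the clusters of endocrine cells scattered through the enzyme-secreting acinar tissue. They are Ins1, Ins2, Iapp, Gcg, Sst, Ppy and Pyy (7 hormones) and Chga, Chgb and Scg2 (3 granins), found by their exact symbols among the 55450 genes counted, with 1 row each. Mouse pancreas was dissociated and the RNA of its cells counted as unique molecular identifiers (UMIs) in 3 libraries, 1 per group, made with a 10x Chromium 3-prime kit. The first library is labelled diabetic-Exercise (here diabetic exercise), the second is a sedentary library labelled diabetic (diabetic sedentary) and the third is a sedentary library labelled none. According to the series text, male db/db animals began treadmill training at 6 weeks of age; db/db mice carry a defective leptin receptor gene in all cells and become obese and diabetic. The genotype and age behind the library labelled none, the training time and the number of animals per library are not stated in the labels. With 1 library per group no difference between groups could be tested; every interval below is a 95% interval for counting error and says nothing of variation between animals.

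Beta cells make insulin, which lowers blood glucose, and release amylin with it. Alpha cells make glucagon, which raises blood glucose, delta cells make somatostatin, which restrains both, and PP cells make pancreatic polypeptide. Granins are acidic proteins that help pack these peptides into secretory granules. In mice, insulin comes from a pair of genes: Ins2, which corresponds to the insulin gene of other mammals, and Ins1, a rodent copy. Amylin is the peptide that forms amyloid deposits in human islets, although mouse amylin does not aggregate.

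A barcode was called hormone-rich when the 7 hormones made up at least 5% of its UMIs. This held for 15 of 18433 barcodes in the diabetic exercise library, 64 of 12743 in the diabetic sedentary library and 6 of 9958 in the library labelled none, 85 of 41134 in all. The 3 libraries held 45209034, 80185752 and 54128454 UMIs in that order, and every deposited barcode held at least 500. The lowest hormone share inside was 5.98%, 6.60% and 5.04% of UMIs in the diabetic exercise, diabetic sedentary and none libraries, and the highest outside was 3.03%, 4.37% and 2.63%. Only 3, 15 and 4 further barcodes held between 1% and 5%.

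Endocrine genes that played no part in the choice marked the same barcodes. The summed level of 20 such genes, granins among them, was 194, 181 and 56.4 UMIs per 10000 in hormone-rich barcodes of the diabetic exercise, diabetic sedentary and none libraries, against 2.47, 2.32 and 2.03 in all other barcodes. Of the 12 endothelial markers, 0, 5 and 1 had any UMI in the hormone-rich barcodes. RNA of acinar cells was present throughout: 31 acinar markers made up 6.05%, 15.2% and 34.9% of the UMIs in hormone-rich barcodes. At least 50% of UMIs were acinar in 1, 17 and 3 hormone-rich barcodes of the 3 libraries. No hormone-rich barcode sequence was shared between libraries.

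The share of hormone-rich barcodes was 0.0814% (interval 0.0456 to 0.134) in the diabetic exercise library, 0.502% (0.387 to 0.641) in the diabetic sedentary library and 0.0603% (0.0221 to 0.131) in the library labelled none. The diabetic exercise share was thus 0.162 times the diabetic sedentary share (0.0857 to 0.288), and the diabetic sedentary share was 8.34 times that of the library labelled none (3.63 to 23.6). These ratios rest on shallow barcodes. Hormone-rich barcodes held a median of 10686, 2178 and 20450.5 UMIs in the 3 libraries. All other barcodes held a median of 1886, 4652 and 3951 UMIs, so a depth limit also changes the number of barcodes that the share is taken of. Among barcodes with at least 10000 UMIs, a depth chosen after the values were seen, 8 of 252, 7 of 2246 and 4 of 1029 were hormone-rich, which turns the diabetic exercise to diabetic sedentary ratio to 10.2 and the diabetic sedentary to none ratio to 0.802. With barcodes of at least 50% acinar UMIs left out of both sides, the diabetic exercise to diabetic sedentary ratio was 0.340.

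**Figure D1:**
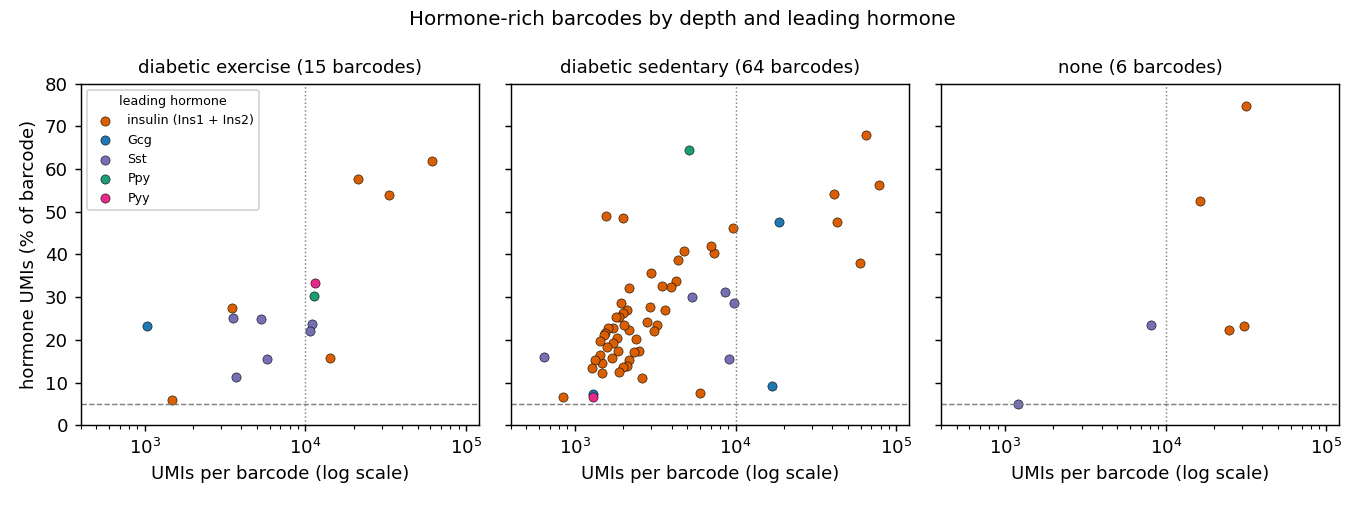
Each point is 1 hormone-rich barcode, with its UMIs on a log axis and the percent of them from the 7 hormones, in the diabetic exercise (15), diabetic sedentary (64) and none (6) libraries; colours give the leading hormone, the dashed line the 5% minimum and the dotted line 10000 UMIs. Most points of the diabetic sedentary library are insulin-led and lie left of the dotted line.

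The leading hormone of a barcode is the highest of Ins1 plus Ins2, Gcg, Sst, Ppy and Pyy. In the diabetic exercise library 6 hormone-rich barcodes were led by insulin, 6 by Sst and 1 each by Gcg, Ppy and Pyy. In the diabetic sedentary library 54 were led by insulin, 5 by Sst, 3 by Gcg and 1 each by Ppy and Pyy. In the library labelled none 4 were led by insulin and 2 by Sst. Insulin thus led 40.0% (16.3 to 67.7), 84.4% (73.1 to 92.2) and 66.7% (22.3 to 95.7) of the hormone-rich barcodes in the 3 libraries.

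The insulin-led barcodes of the diabetic sedentary library fell apart by depth. Of its 54, 5 held at least 10000 UMIs and 49 held fewer, with a median of 2014 UMIs and 428 genes. The diabetic exercise library had 4 deep and 2 shallow ones, and the library labelled none had 4 deep ones. In the 49 shallow barcodes acinar markers made up a median of 43.0% of UMIs, and the 20 endocrine genes summed to 122 UMIs per 10000, with a UMI in each barcode. Their Ins1 share of insulin UMIs ran from 1.16% to 18.7%, with a median of 8.72% and a pooled value of 8.43%. The counting interval held that pooled value in 40 of the 49. In the 5 deep barcodes it held their own pooled value, 10.2%, in 0. For Iapp per insulin UMI the interval held the pooled value in 37 of the 49 and in 0 of the 5. Shallow barcodes hold fewer insulin UMIs, so their intervals are wider. Whether these shallow barcodes are whole cells, cell fragments or droplets with free RNA was not tested, and the insulin-led share of 84.4% and the 8.34-fold ratio above rest on them. Values for insulin-led barcodes are therefore given below for the 4, 5 and 4 deep barcodes, beside those for all hormone-rich barcodes.

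Insulin came mainly from Ins2 in all libraries, but the share of Ins1 was lower in both diabetic libraries than in the library labelled none. In hormone-rich barcodes, Ins2 stood at 2537, 2545 and 2783 UMIs per 10000 in the diabetic exercise, diabetic sedentary and none libraries. Ins1 stood at 272, 277 and 1000.4 UMIs per 10000. Ins1 was therefore 9.69% (9.45 to 9.94), 9.82% (9.67 to 9.98) and 26.4% of the insulin UMIs. The ratio of the Ins1 level was 0.982 (0.952 to 1.01) for diabetic exercise over diabetic sedentary and 0.277 (0.270 to 0.284) for diabetic sedentary over none.

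Ins1 lies on chromosome 19 (GRCm38, 52264297 to 52265476, plus strand) and Ins2 on chromosome 7 (142678656 to 142743381, minus strand). Because the ratio of these related genes carries the result, the last 120 coding bases of each are shown, from GENCODE M21 transcripts, with the bases that differ in capitals; they lie at chr19:52264831-52264950 on the plus strand and chr7:142678713-142678832 on the minus strand.
Ins1: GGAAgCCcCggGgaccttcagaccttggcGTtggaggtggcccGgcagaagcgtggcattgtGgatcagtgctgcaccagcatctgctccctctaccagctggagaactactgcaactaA
Ins2: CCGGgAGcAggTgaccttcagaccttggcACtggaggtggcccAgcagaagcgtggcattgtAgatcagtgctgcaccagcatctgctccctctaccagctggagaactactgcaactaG
These stretches differ at 13 of 120 bases. The longest run identical in the Ins1 and Ins2 transcripts is 56 bases, and none of the 90-base stretches of the Ins1 transcript occurs in that of Ins2. The labels do not say how shorter matches were assigned.

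Single deep barcodes showed what the pooled share hides. The 4 of the diabetic exercise library had Ins1 at 1.61%, 12.8%, 25.1% and 0.789% of insulin UMIs. The 5 of the diabetic sedentary library had 1.52%, 6.98%, 14.2%, 14.9% and 25.5%. The 4 of the library labelled none had 27.0%, 26.9%, 26.8% and 24.3%. The diabetic libraries thus ran from almost no Ins1 to about the level of the library labelled none, which itself was nearly constant. The ranges meet: 1 diabetic exercise and 1 diabetic sedentary barcode lay above the lowest barcode of the library labelled none.

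Iapp, the amylin gene, was higher in both diabetic libraries than in the library labelled none. It stood at 872, 1036 and 224 UMIs per 10000 in hormone-rich barcodes of the diabetic exercise, diabetic sedentary and none libraries. The diabetic sedentary to none ratio was 4.63 (4.45 to 4.82), and the diabetic exercise to diabetic sedentary ratio was 0.842 (0.828 to 0.857). Per 100 insulin UMIs, the deep insulin-led barcodes held 40.3, 7.12, 8.78 and 489 Iapp UMIs in the diabetic exercise library. They held 38.0, 14.9, 267, 25 and 13.8 in the diabetic sedentary library and 4.67, 6.17, 5.83 and 4.96 in the library labelled none. Every deep insulin-led barcode of both diabetic libraries was above all 4 of the library labelled none, while the diabetic libraries overlapped each other. Among these deep barcodes, Iapp outnumbered insulin in 1 of each diabetic library: 1860 Iapp against 3 Ins1 and 377 Ins2 UMIs in the diabetic exercise barcode, and 16491 against 873 and 5293 in the diabetic sedentary barcode.

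**Figure D2:**
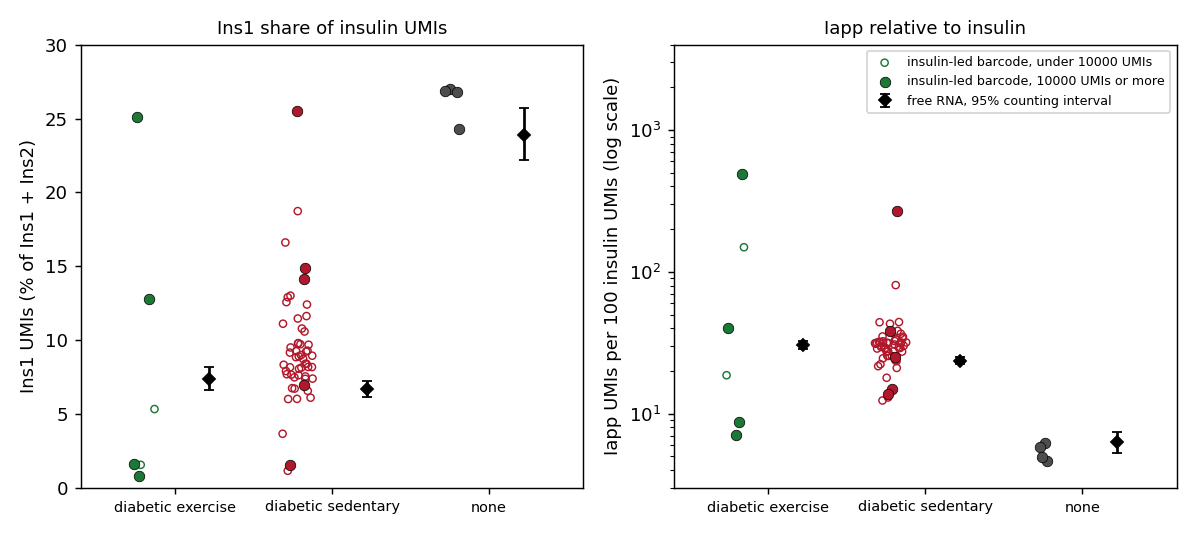
Left, Ins1 as a percent of Ins1 plus Ins2 UMIs; right, Iapp UMIs per 100 insulin UMIs on a log axis, in the diabetic exercise, diabetic sedentary and none libraries. Circles are insulin-led barcodes (filled, 10000 UMIs or more; open, fewer), and diamonds are free RNA of all barcodes that are not hormone-rich, with the 95% counting interval; the free RNA value is low for Ins1 (7.38%, 6.67% and 23.9%) and high for Iapp (30.5, 23.7 and 6.32) in both diabetic libraries.

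Genes of beta cell identity and of its loss, from lists of known genes, were looked up in the same deep barcodes. Mafa, a transcription factor of mature beta cells that activates insulin genes, was named after its values were seen. It had 1, 5, 15 and 0 UMIs in the 4 diabetic exercise barcodes, 2, 0, 0, 0 and 0 in the 5 diabetic sedentary barcodes and 12, 9, 6 and 6 in the 4 barcodes of the library labelled none. The sums were 21 of 129952, 2 of 286405 and 33 of 103139 UMIs, and the ratio of the levels was 23.1 (5.66 to 204) for diabetic exercise over diabetic sedentary. Of the 21 UMIs, 15 lay in 1 barcode, the one with Ins1 at 25.1%. Other genes of beta cell identity went both ways in these barcodes. Like Mafa, Slc30a8, Ucn3 and Nkx6-1 were lowest in the diabetic sedentary library. In the diabetic exercise, diabetic sedentary and none libraries, Slc30a8 stood at 0.770, 0.244 and 2.23 UMIs per 10000, from 10, 7 and 23 UMIs. Ucn3 stood at 2.54, 0.419 and 0.776, from 33, 12 and 8 UMIs, and Nkx6-1 at 1.15, 0.594 and 1.07, from 15, 17 and 11. For diabetic sedentary over none the ratio was 0.540 (0.203 to 1.52) for Ucn3 and 0.557 (0.246 to 1.31) for Nkx6-1. Both intervals included 1, as did that of Nkx6-1 for diabetic exercise over diabetic sedentary, 1.94 (0.904 to 4.14). That ratio was 6.06 (3.05 to 12.9) for Ucn3. Pdx1, Neurod1 and G6pc2 did not follow Mafa. Pdx1, a factor that activates insulin genes, stood at 0.539, 0.663 and 0.485 UMIs per 10000 in the diabetic exercise, diabetic sedentary and none libraries. Neurod1, likewise an insulin gene activator, stood at 0.923, 0.733 and 0.388, and G6pc2, an islet glucose-6-phosphatase subunit, at 3.62, 4.29 and 3.39.

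Aldh1a3, Cck and Gast, which appear in beta cells that lose their mature state, had UMIs in deep barcodes of both diabetic libraries and 0 in those of the library labelled none. Aldh1a3, which encodes a retinaldehyde dehydrogenase, had 20, 0, 1 and 1 UMIs in the diabetic exercise barcodes, 21, 4, 10, 2 and 5 in the diabetic sedentary barcodes and 0 in all 4 of the library labelled none. Cck, the gut hormone cholecystokinin, had 3, 0, 0 and 2 UMIs in the diabetic exercise barcodes, 205, 0, 131, 69 and 26 in the diabetic sedentary barcodes and 0 in those of the library labelled none. Gast, the gene of gastrin, had 3, 0, 0 and 0 UMIs, against 1, 99, 79, 0 and 2 and again 0. Cck was present in 4 of 5 diabetic sedentary barcodes, and its diabetic exercise to diabetic sedentary ratio was 0.0256 (0.00826 to 0.0601). Of this list of 9 genes, these 3 were the ones with at least 20 UMIs over these libraries.

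The hormone-rich barcodes not led by insulin mostly held more than 1 hormone. Sst, the somatostatin gene, stood at 301, 109 and 116 UMIs per 10000 in all hormone-rich barcodes of the diabetic exercise, diabetic sedentary and none libraries, a ratio of 2.77 (2.67 to 2.88) for diabetic exercise over diabetic sedentary. Within the 6 Sst-led barcodes of the diabetic exercise library, Sst had 1487, 1149, 672, 690, 323 and 463 UMIs. Within the 5 of the diabetic sedentary library it had 1251, 751, 2052, 1218 and 87, and within the 2 of the library labelled none 1264 and 41. Over the barcodes led by Sst or Pyy, the Sst level of the diabetic exercise library was 0.753 times (0.725 to 0.781) that of the diabetic sedentary library. The higher level in the diabetic exercise library therefore went with the makeup of its hormone-rich UMIs. Sst-led barcodes held 39969 and the Pyy-led barcode 11515 of its 198800 UMIs. In the diabetic sedentary library they held 33478 and 1300 of 494959.

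Rbp4 and Hhex, a carrier of retinol and a transcription factor, both marks of mouse delta cells, were not used to choose these barcodes. Rbp4 had 207, 132 and 49 UMIs in the Sst-led barcodes of the diabetic exercise, diabetic sedentary and none libraries, against 0, 1 and 0 in the insulin-led ones. Hhex had 11, 4 and 2 UMIs in the Sst-led barcodes and 0, 2 and 0 in the insulin-led ones. The Sst-led barcodes thus carried marks of delta cells that the rule did not use. Mafa had no UMI in any Sst-led barcode.

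Pyy, peptide YY, is best known as a gut hormone and is made in islet cells too. It stood at 229, 77.2 and 26.7 UMIs per 10000 in hormone-rich barcodes of the diabetic exercise, diabetic sedentary and none libraries. It accompanied Sst: the 6 Sst-led diabetic exercise barcodes held 738, 656, 84, 305, 37 and 212 Pyy UMIs, the 5 diabetic sedentary ones 1154, 304, 258, 172 and 0, and the 2 of the library labelled none 297 and 3. The Pyy-led diabetic exercise barcode held 1944 Pyy and 1204 Sst UMIs and resembled them. Iapp was also present in every Sst-led barcode, at 61 to 351 UMIs in the diabetic exercise library, 16 to 402 in the diabetic sedentary library and 17 and 327 in the library labelled none. Over the barcodes led by Sst or Pyy its ratio was 1.05 (0.978 to 1.13) for diabetic exercise over diabetic sedentary.

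Gcg, the glucagon gene, was found in few barcodes. Its 1003 UMIs in hormone-rich barcodes of the diabetic exercise library were 841 in the Ppy-led barcode, 142 in the Gcg-led barcode and the rest elsewhere. Its 9432 UMIs in the diabetic sedentary library were 8084, 1186 and 77 in the 3 Gcg-led barcodes, 83 in the Ppy-led barcode and 2 elsewhere. No hormone-rich barcode of the library labelled none held a Gcg UMI, which allows up to 3 of 112430. The diabetic exercise to diabetic sedentary ratio of 0.265 (0.248 to 0.283) rests on 1 barcode that held 85.7% of the diabetic sedentary Gcg UMIs. It turned to 1.5 with every barcode thinned to 500 UMIs.

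Ppy, the pancreatic polypeptide gene, likewise came from 1 barcode per library: 2077 of 2588 UMIs in the diabetic exercise library and 2386 of 2651 in the diabetic sedentary library, with 2 UMIs in the library labelled none. These Ppy-led barcodes also held Gcg (841 and 83 UMIs) and Pyy (510 and 860 UMIs). Irx2, a transcription factor of alpha cells, had 5 UMIs in the Ppy-led diabetic exercise barcode, 2 in the Gcg-led diabetic sedentary barcodes and 0 in the Ppy-led diabetic sedentary barcode. It had none in any insulin-led or Sst-led barcode.

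**Figure D3:**
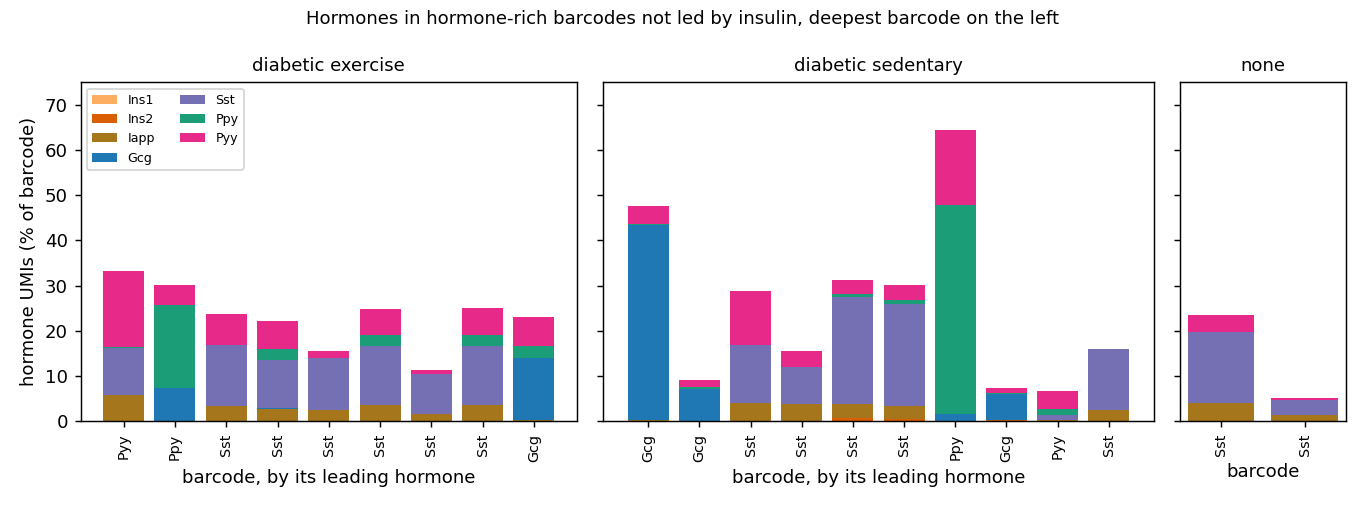
Each bar is 1 hormone-rich barcode not led by insulin, split by hormone as a percent of its UMIs, in the diabetic exercise (9), diabetic sedentary (10) and none (2) libraries, the deepest on the left. Sst-led bars also hold Iapp and, in all but 1, Pyy, and both Ppy-led bars hold Gcg and Pyy.

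The granins were lower in insulin-led barcodes of the library labelled none than in both diabetic libraries for Chgb and Scg2, with Chga less apart. Chga encodes chromogranin A, Chgb chromogranin B and Scg2 secretogranin II. Exact matches to the cyclic AMP response element, TGACGTCA, were sought on both strands (it reads the same on each) in RefSeq promoters of GRCm38.p6. Of the 9 members with a promoter sequence, 3 held it in the 300 bases around the start, as did 1.79% of the 32851 promoters. The 150 bases before the start are shown for those 3 genes and for Chga, with the motif in capitals, at chr1:79440027-79440176 (minus), chr2:132781492-132781641 (plus), chr16:23890845-23890994 (minus) and chr12:102554791-102554940 (plus).
Scg2: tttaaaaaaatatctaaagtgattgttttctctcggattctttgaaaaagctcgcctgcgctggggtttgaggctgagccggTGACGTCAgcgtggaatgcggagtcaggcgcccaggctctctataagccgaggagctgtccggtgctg
Chgb: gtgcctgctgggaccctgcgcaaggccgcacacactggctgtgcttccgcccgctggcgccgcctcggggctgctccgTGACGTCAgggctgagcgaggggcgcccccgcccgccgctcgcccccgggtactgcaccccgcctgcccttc
Sst: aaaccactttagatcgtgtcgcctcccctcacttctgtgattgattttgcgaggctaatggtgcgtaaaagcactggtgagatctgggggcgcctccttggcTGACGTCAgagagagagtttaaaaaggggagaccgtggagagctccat
Chga: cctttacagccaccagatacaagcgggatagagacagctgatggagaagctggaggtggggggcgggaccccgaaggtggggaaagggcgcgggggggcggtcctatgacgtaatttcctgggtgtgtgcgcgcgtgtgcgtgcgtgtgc
The motif begins 68, 72 and 48 bases before the start of Scg2, Chgb and Sst. The Chga stretch holds no exact match, but it holds tgacgtaa, which differs from the motif only in the next-to-last base. Near matches were not sought. These letters are a description and were not tied to the levels.

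In the deep insulin-led barcodes, Chgb stood at 42.5, 5.13, 8.47 and 41.2 UMIs per 10000 in the diabetic exercise library. It stood at 23.1, 18.1, 81.0, 47.2 and 10.8 in the diabetic sedentary library and at 3.49, 0.976, 0.406 and 0.615 in the library labelled none. All barcodes of the diabetic libraries lay above all of the library labelled none, and the diabetic libraries overlapped each other. The summed level had a ratio of 23.1 (14.2 to 40.6) for diabetic sedentary over none and 0.760 (0.671 to 0.858) for diabetic exercise over diabetic sedentary. Most genes were higher over the library labelled none in these barcodes. For diabetic sedentary over none, 69.1% of all 1323 genes tested were at least 2-fold higher, with a median log2 ratio of 1.39. The granin ratios over that library are to be read beside this shift.

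Scg2 was likewise higher in every deep barcode of the diabetic libraries than in those of the library labelled none. It stood at 34.8, 97.2, 21.2 and 39.1 UMIs per 10000 in the diabetic exercise barcodes, at 55.7, 27.2, 31.7, 48.8 and 52.0 in the diabetic sedentary barcodes and at 7.94, 6.18, 5.28 and 12.3 in those of the library labelled none. Its ratio was 5.72 (4.54 to 7.30) for diabetic sedentary over none and 1.15 (1.04 to 1.26) for diabetic exercise over diabetic sedentary.

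Chga stood at 22.5, 11.8, 16 and 20.9 UMIs per 10000 in the diabetic exercise barcodes, at 21.9, 25.8, 58.5, 18.0 and 32.6 in the diabetic sedentary barcodes and at 21.3, 5.85, 4.06 and 24.6 in those of the library labelled none, so all groups overlapped. Acinar RNA moved with these levels: the 4 barcodes of the library labelled none were 6.62%, 55.5%, 56.6% and 20.6% acinar by UMIs, against at most 3.50% in the diabetic exercise and 9.60% in the diabetic sedentary barcodes. With acinar markers left out of each barcode's total, Chgb ran from 5.20 to 43.6, from 11.1 to 82.6 and from 0.774 to 3.74 UMIs per 10000 in the 3 libraries, and Scg2 from 21.6 to 98.6, from 27.7 to 58.8 and from 8.50 to 15.5. The library labelled none still did not overlap with either diabetic library for these 2 genes.

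**Figure D4:**
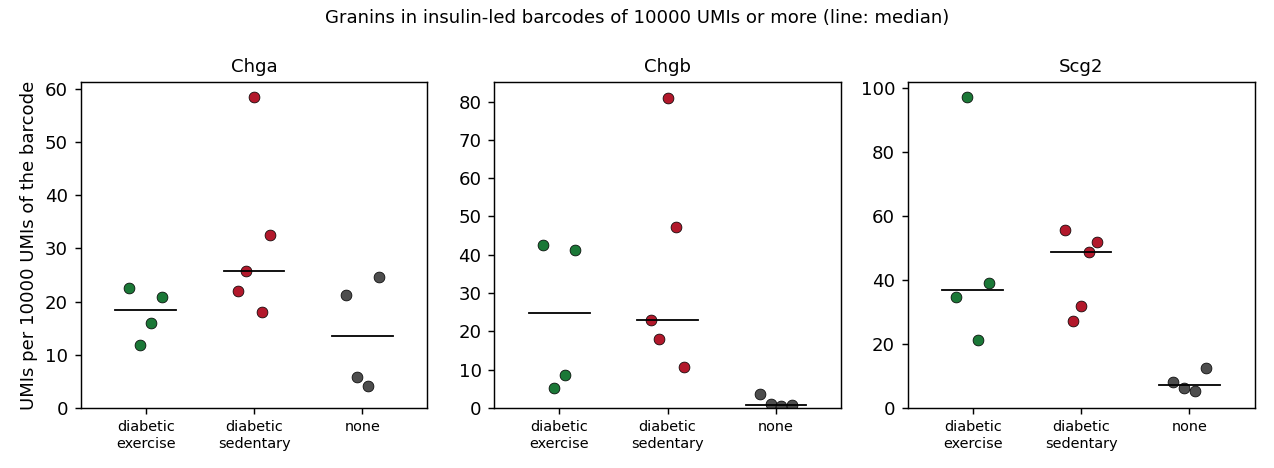
Chga, Chgb and Scg2 in insulin-led barcodes of at least 10000 UMIs, as UMIs per 10000 UMIs of the barcode, in the diabetic exercise (4), diabetic sedentary (5) and none (4) libraries; the line is the median. Chgb and Scg2 of the library labelled none lie below every diabetic barcode, and Chga overlaps. In these barcodes 69.1% of all 1323 genes tested were at least 2-fold higher for diabetic sedentary over none.

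Over all hormone-rich barcodes, 3 of the 10 members (Sst, Ppy and Pyy) were at least 2-fold higher in the diabetic exercise than in the diabetic sedentary library, where 14.3% of all 2907 genes tested were, and 2 (Gcg and Chga) were at least 2-fold lower, where 6.57% were. For diabetic sedentary over none, 7 of 10 were at least 2-fold higher, against 52.3% of 2101 genes, and 1, Ins1, was at least 2-fold lower, against 2.05%. For diabetic exercise over none, 7 were at least 2-fold higher, against 66.8% of 1096 genes, and again Ins1 was lower, against 3.83%. The 7 hormones chose the hormone-rich barcodes, and insulin UMIs the insulin-led ones. For the hormones these counts are therefore a description and cannot be weighed against the share of all genes. Chga, Chgb and Scg2 did not choose the barcodes. The comparisons over the library labelled none share that library and are shifted as a whole: the median log2 ratio of all genes tested was 1.03 and 1.30. Only 6 of the 10 members had 20 or more UMIs in deep insulin-led barcodes of the diabetic libraries, and 0 of these differed 2-fold between them, against 7.05% of 1701 genes higher and 12.3% lower. In the same barcodes, 4 of 6 members were at least 2-fold higher and 1 lower for diabetic sedentary over none, against 69.1% and 3.4% of 1323 genes. For diabetic exercise over none, 3 of 6 were higher and 1 lower, against 64.8% and 6.94% of 620 genes. The median log2 ratio of all genes tested in these barcodes was 1.39 for diabetic sedentary and 1.32 for diabetic exercise over none.

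Other genes of the secretory granule were counted in the hormone-rich barcodes from lists. Of 4 further granin family genes, 1 was at least 2-fold higher and 0 lower for diabetic exercise over diabetic sedentary, with a median log2 ratio of 0.23 beside 0.27 over all genes. For diabetic sedentary over none 3 were tested and 2 were higher, where 52.3% of all genes were, with a median of 2.12 beside 1.03. Scg3, which binds chromogranin A in granules, stood at 11.2, 12.7 and 2.94 UMIs per 10000 in the diabetic exercise, diabetic sedentary and none libraries. Scg5, a chaperone of the convertase PC2, stood at 9.66, 10.4 and 2.31. Of 6 prohormone processing genes tested between the diabetic libraries, 0 differed 2-fold, where 14.3% of all genes were higher and 6.57% lower. Among them, Pcsk2, which encodes PC2, stood at 16.2, 12.2 and 6.40, and Cpe, the carboxypeptidase that trims hormones, at 12.8, 9.72 and 3.91.

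Ero1lb, an oxidase that helps proinsulin fold, was lower in both diabetic libraries than in the library labelled none, at 1.86, 1.54 and 5.34 UMIs per 10000, a ratio of 0.288 (0.202 to 0.411) for diabetic sedentary over none. Of 12 endoplasmic reticulum stress genes, 8 were at least 2-fold higher and 0 lower for diabetic sedentary over none, where 52.3% and 2.05% of all genes were, with a median log2 ratio of 2.0 beside 1.03 over all genes. Hspa5, the main chaperone of that compartment, stood at 7.65, 7.15 and 3.29 UMIs per 10000, and Manf, a secreted stress protein, at 5.13, 5.23 and 1.33. Between the diabetic libraries, 1 of the 12 was higher and 1 lower, near the 14.3% and 6.57% of all genes, and the median was 0.22.

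Of 10 islet transcription factors tested between the diabetic libraries, 6 were at least 2-fold higher in the diabetic exercise library and 0 lower, where 14.3% and 6.57% of all genes were, with a median log2 ratio of 1.17 beside 0.27. Pax6, needed for all islet cell types, stood at 2.36, 0.849 and 0.800 UMIs per 10000 in the 3 libraries. Isl1, likewise an islet factor, stood at 1.71, 0.970 and 0.534. These levels are pooled over leading hormones, whose shares of UMIs differed between the diabetic libraries. In Sst-led barcodes Isl1 stood at 4.003 and 5.078 in the diabetic exercise and diabetic sedentary libraries, and Pax6 at 2.752 and 2.39. In insulin-led barcodes Isl1 stood at 1.037 and 0.694, and Pax6 at 1.853 and 0.789. How much of the 6 of 10 went with this makeup was not tested. In deep insulin-led barcodes 9 islet transcription factors were tested and 2 were higher, where 7.05% of all genes were, with a median of 0.85 beside -0.12. Of 11 granule membrane and exocytosis genes in hormone-rich barcodes, 2 were higher and 0 lower, with a median of 0.50, and 2 of 11 is near the 14.3% of all genes. Of 6 glucose sensing genes, 2 were higher and 0 lower, with a median of 0.57.

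The genes most like the members were those with the highest smallest ratio, over the 3 libraries, of the level in hormone-rich to that in other barcodes. The first 10 outside the members were G6pc2, Scg5, Pcsk2, Resp18, Syt13, Pcsk1n, Ptprn, Scg3, Slc30a8 and A330076H08Rik. G6pc2 was at least 3547 times higher in hormone-rich barcodes in each of the libraries, counting a floor of 3 UMIs where other barcodes held fewer. The tenth, A330076H08Rik, was 468 times higher at the least.

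Outside the hormone-rich barcodes the same RNAs were found at low levels in cells of many kinds. These UMIs are called free RNA here, since droplets take up RNA shed by other cells. The 7 hormones summed to 155 (151 to 158), 149 (146 to 152) and 47.5 (45.7 to 49.4) UMIs per 1000000 in the other barcodes of the diabetic exercise, diabetic sedentary and none libraries. The ratio was 3.13 (3.00 to 3.27) for diabetic sedentary over none and 1.04 (1.01 to 1.07) for diabetic exercise over diabetic sedentary. In these sums, fewer islet cells and less RNA per cell cannot be told apart. Without acinar markers in the total, the ratio of diabetic exercise over diabetic sedentary was 0.775, so the order of the diabetic libraries depends on the scaling. After thinning to 500 UMIs, 8.52%, 9.57% and 3.46% of the other barcodes held a hormone UMI, and before thinning 23.8%, 47.0% and 19.0% did.

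Free Ins2 stood at 93.4, 91.7 and 32.3 UMIs per 1000000 in the diabetic exercise, diabetic sedentary and none libraries. Free Ins1 stood at 7.44, 6.55 and 10.2, so Ins1 was the only member lower in the diabetic sedentary library than in the library labelled none, with a ratio of 0.644 (0.571 to 0.728). Ins1 made up 7.38% (6.64 to 8.18), 6.67% (6.13 to 7.25) and 23.9% (22.2 to 25.7) of free insulin UMIs, again lower in both diabetic libraries than in the library labelled none. Free Iapp stood at 30.8, 23.3 and 2.68 UMIs per 1000000 and at 30.5 (28.7 to 32.5), 23.7 (22.5 to 24.9) and 6.32 (5.30 to 7.47) per 100 insulin UMIs.

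In barcodes named by other cells' markers, the Ins1 share was again higher in the library labelled none than in both diabetic libraries, whose own order varied. It was 12.8%, 7.56% and 26.7% of insulin UMIs in endothelial-like barcodes of the diabetic exercise, diabetic sedentary and none libraries, 6.12%, 3.62% and 32.0% in fibroblast-like and 2.22%, 6.36% and 27.3% in macrophage-like barcodes. The counts behind these shares are small, down to 1 Ins1 UMI in the diabetic exercise macrophage-like barcodes. In endothelial-like barcodes the 7 hormones summed to 125 (103 to 150), 148 (133 to 165) and 28.7 (16.4 to 46.7) UMIs per 1000000.

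Free RNA of the other hormones was also higher in both diabetic libraries than in the library labelled none. Free Sst stood at 10.3, 13.3 and 0.926 UMIs per 1000000 in the diabetic exercise, diabetic sedentary and none libraries, and Pyy at 6.49, 7.13 and 0.185. A single barcode held 277 of the 1060 free Sst and 163 of the 568 free Pyy UMIs of the diabetic sedentary library; its hormone share was 4.37%, just under the minimum. In barcodes under 1% hormone UMIs the diabetic exercise to diabetic sedentary ratio was 1.17 for Sst in place of 0.772, and 1.5 for Pyy in place of 0.910. Free Ppy numbered 176, 167 and 1 UMIs, and its level was 1.87 times (1.5 to 2.32) higher in the diabetic exercise than in the diabetic sedentary library. Free Gcg stood at 2.42, 4.82 and 1.20 UMIs per 1000000, a ratio of 0.503 (0.402 to 0.623) for diabetic exercise over diabetic sedentary. All 65 Gcg UMIs of the library labelled none lay in 10 barcodes, 28 of them in 1.

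Free granins were few. Chga numbered 24, 105 and 11 UMIs in the diabetic exercise, diabetic sedentary and none libraries, Chgb 32, 74 and 2, and Scg2 73, 105 and 3. The diabetic sedentary to none ratio was 6.47 (3.47 to 13.4) for Chga, 25.1 (6.70 to 211) for Chgb and 23.7 (7.90 to 117) for Scg2. The diabetic exercise to diabetic sedentary ratio of Chga was 0.405 (0.248 to 0.635).

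**Figure D5:**
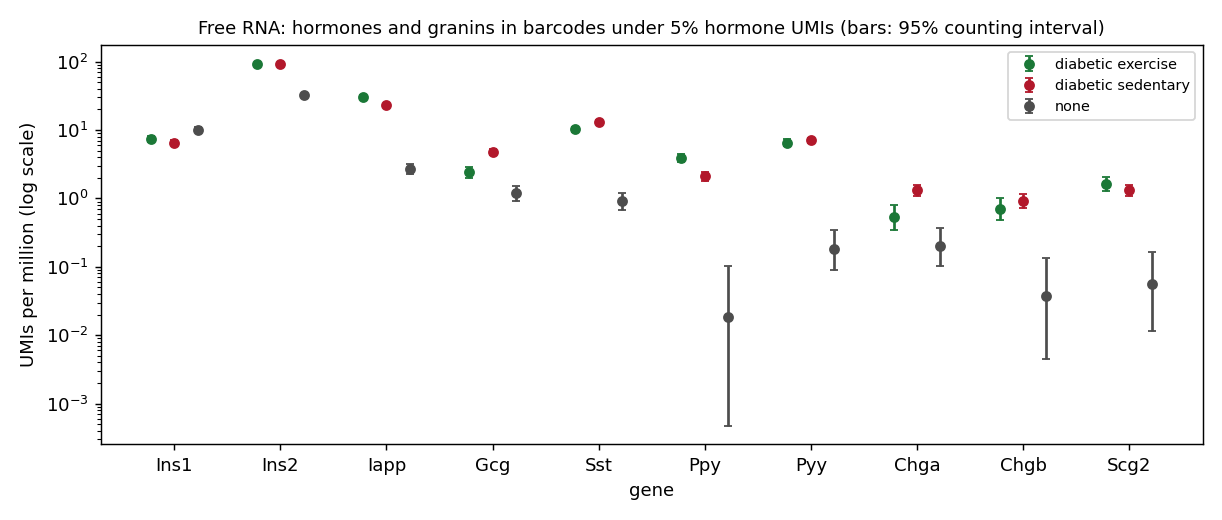
Free RNA of the 10 genes in barcodes that are not hormone-rich, as UMIs per 1000000 on a log axis, in the diabetic exercise, diabetic sedentary and none libraries; bars are 95% counting intervals. Ins1 is the gene whose 2 diabetic points lie below the point of the library labelled none, and for the other 9 genes both diabetic points lie above it.

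As free RNA, 9 of the 10 members were at least 2-fold higher for diabetic sedentary over none, where 14.7% of 15428 genes were, and 9 of 10 for diabetic exercise over none, where 39.0% of 15213 were. None was at least 2-fold lower in either, where 4.01% and 2.62% of genes were. Between the diabetic libraries 0 of 10 were at least 2-fold higher, where 13.2% of 15713 genes were, and 1, Chga, was at least 2-fold lower, where 1.27% were. Members shed by the same islet cells can rise and fall together as free RNA. The counts are therefore not 10 separate results and cannot be weighed against the share of all genes. Every comparison here sets 1 library against 1 other, and the share of acinar RNA and of mitochondrial RNA also differed between them: median mitochondrial shares outside the hormone-rich barcodes were 7.0%, 2.20% and 0.709%. The part of these in the results was not tested.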

How the data were processed

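The authors deposited, per library, whole-number UMI counts per gene and barcode without normalization, made with Cell Ranger (7.1.0 per the submitters' processing notes, 6.1.2 per the matrix headers). The alignment build and barcode filter are not stated in the labels; gene identifiers and symbols all match GENCODE M21, used for positions. Counts were summed per library over hormone-rich and other barcodes and scaled per 10000 or per 1000000 total UMIs. Exact Poisson, Clopper-Pearson and conditional ratio intervals were used, which cover counting error only. Of these, only the ratio intervals were tried on simulated counts, drawn from the Poisson model that they assume. A gene was called 2-fold different when it had at least 20 UMIs over both libraries; where a library held 0, a floor of 3 UMIs was used. Other cells were clustered (scanpy 1.11.5, barcodes with at least 200 genes and at most 20% mitochondrial UMIs) and named from markers; each named type used here is 1 cluster. No doublet caller was run. The 10 members, all lists and the markers were chosen with earlier results of these data known; of each list the genes that reached 20 UMIs were counted and at most 4, those with the most UMIs, named; the 10 most alike genes needed 10 UMIs in hormone-rich barcodes of each library, and Mafa, Pdx1 and other genes outside this rule were added after their values were seen. Alternatives were other minimum shares, filters on barcodes, scaling without acinar genes, edgeR 4.0.16 TMM factors, leaving out single barcodes, subtracting free RNA, thinning, and subsets by depth or leading hormone added after the data were seen.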

Additional observations from a re-analysis of the deposited data

How the results depend on the processing

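No paired analysis was possible because each group has 1 library. The share of hormone-rich barcodes kept its direction under other minimum shares, the filter on barcodes and thinning. Leaving out barcodes with at least 50% acinar UMIs gave 0.340 for diabetic exercise over diabetic sedentary, and keeping barcodes of at least 10000 UMIs gave 10.2, with 0.802 for diabetic sedentary over none and 8.17 for diabetic exercise over none. Summed free hormones, diabetic exercise over diabetic sedentary, were 1.13 in barcodes under 1% hormone UMIs, 0.775 without acinar markers in the total, 0.743 with TMM and 1.09 without the barcode with most UMIs of each gene. Diabetic sedentary over none was 2.93 without acinar markers and 2.50 with TMM; diabetic exercise over none was 3.44 under 1%, 2.27 without acinar markers and 1.86 with TMM. Insulin led 100% of hormone-rich barcodes in the diabetic exercise and none libraries where the leader held 80% of hormone UMIs, and 71.4% in the diabetic sedentary and 100% in the none library at 10000 UMIs or more. Free Iapp per 100 insulin UMIs was 19.7 in the diabetic sedentary library under 1% hormone UMIs. The causes were not tested.

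Thinned to 500 UMIs, which weighs barcodes equally, Gcg in hormone-rich barcodes turned to 1.5 for diabetic exercise over diabetic sedentary and Pyy to 0.803 for diabetic sedentary over none. Of 288 alternatives for single members in hormone-rich barcodes, 260 stayed on the same side of 1 and 75 moved over 1.5-fold. Of 148 for free RNA, 136 stayed on the same side and 20 moved that far. With TMM, Ins2 in hormone-rich barcodes was 0.467 for diabetic sedentary over none in place of 0.915. The results are also limited by the number of hormone-rich barcodes: 15, 64 and 6 in the diabetic exercise, diabetic sedentary and none libraries.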
